A study of Homo sapiens with 16 samples.

Results

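The hypoxia and glycolysis genes are 42 protein-coding genes of the cell's oxygen response and of sugar breakdown. They were chosen by symbol, and all 42 were found among the 58735 genes of the count tables. They comprise 22 genes of glucose uptake and glycolysis, 6 genes of oxygen sensing (3 subunits of the hypoxia-inducible factor, HIF, and its 3 prolyl hydroxylases) and 14 other HIF targets. Messenger RNA was measured in 2 established lines of triple-negative breast cancer, MDA-MB-231 and SUM159PT, both wild type per the labels. Cells were collected 48 h after transfection with Lipofectamine2000 and an siRNA against the Src family kinase YES1 (siYES1) or against firefly luciferase (siNS, the control). Each of the 4 groups had 4 libraries. The labels give neither the sequence nor the number of the YES1 siRNAs, name no low-oxygen treatment, and call the libraries technical replicates, so p-values measure only the spread between such libraries.

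HIF is a pair of proteins, an alpha subunit (HIF1A or EPAS1) and the beta subunit ARNT, that binds the DNA letters ACGTG or GCGTG near its target genes. While oxygen is present the prolyl hydroxylases EGLN1, EGLN2 and EGLN3 mark the alpha subunits, the VHL ubiquitin ligase takes them up and they are degraded. When oxygen falls they accumulate and switch on genes for glucose uptake, glycolysis, acid export, blood vessel growth and mitochondrial turnover, EGLN3 among them. HIF is controlled largely at the protein level, which messenger RNA does not show, and many tumor lines run glycolysis at a high rate with oxygen present.

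Libraries held 15863961 to 21158617 counts in MDA-MB-231 and 15680459 to 23451253 in SUM159PT, and all 42 members passed the low count filter in both lines. YES1 itself fell from 63.2 to 13.8 CPM (counts relative to the scaled library size) in MDA-MB-231 and from 133.9 to 17.2 in SUM159PT, in every library. The SUM159PT columns carry the prefix S149, so the name of that line rests on its titles and labels. The hormone receptors ESR1 and PGR stayed near 0, and ERBB2 was at 118.9 CPM in MDA-MB-231 siNS and 66.3 in SUM159PT siNS. The summed CPM of 4 leukocyte markers ran from 7.84 to 10.1 in MDA-MB-231 siNS and from 1.52 to 2.61 in siYES1, and from 3.37 to 5.33 and from 0.374 to 1.27 in SUM159PT. CD3E was at or near 0 throughout. The 4 endothelial markers summed to 7.47 to 12.6 and 4.63 to 7.08 in MDA-MB-231 and to 15.9 to 24.1 and 1.72 to 2.33 in SUM159PT, with CDH5 at or near 0. Epithelial markers (5 genes) summed to 1930 to 2530 CPM and 2076 to 2156 in MDA-MB-231 and to 413 to 488 and 233 to 247 in SUM159PT, and mesenchymal markers (4 genes) to 805 to 991 and 1337 to 1390, and to 3385 to 4796 and 6461 to 6870. The epithelial sums of MDA-MB-231 hide opposite log2 fold changes with siYES1. KRT8 (0.43) and KRT18 (0.31) rose, KRT19 (-0.85) and EPCAM (-0.88) fell, and CDH1 changed little (-0.03). In SUM159PT KRT8 and KRT18 fell (-0.86 and -1.04), and the other epithelial markers lay at or under 1.18 CPM. The part of these markers in the results was not tested. In bulk libraries such as these, fewer cells of a kind and less RNA per cell cannot be told apart. ALDOA shares 42.3% of its exon bases with AC093512.2 on the same strand and EGLN2 shares 30.6% with RAB4B-EGLN2, so the counts of these 2 members are uncertain.

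Most called members fell in MDA-MB-231 and rose in SUM159PT. In MDA-MB-231 25 of the 42 fell and 3 rose with siYES1, with a median log2 fold change of -0.30 over all 42. In SUM159PT 16 rose and 5 fell, with a median of 0.24. Over all genes tested the medians were 0.0015 and -0.029. Genes were called at an adjusted p under 0.05 in edgeR's quasi-likelihood test over all genes, and every ± beside a log2 fold change is its standard error.

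These counts stand against a broad response in each line. In MDA-MB-231 52.4% of the 14319 genes tested were called, 24.9% higher and 27.5% lower, against 66.7% of the members. In SUM159PT 36.8% of 14469 genes were called, 17.7% higher and 19% lower, against 50% of the members. In MDA-MB-231 all 4 siYES1 libraries lay below all 4 siNS libraries for 25 members and above them for 3, where 24.7% and 22.4% of all genes did so. In SUM159PT they lay above for 15 members and below for 5, where 18.2% and 18.6% of all genes did. With total counts as the scaling in place of TMM, 9 members were called higher and 9 lower in SUM159PT. That scaling moved the median of all genes in this line from -0.029 to -0.20 and the share of calls that were higher from 48.2% to 25%.

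**Figure D1:**
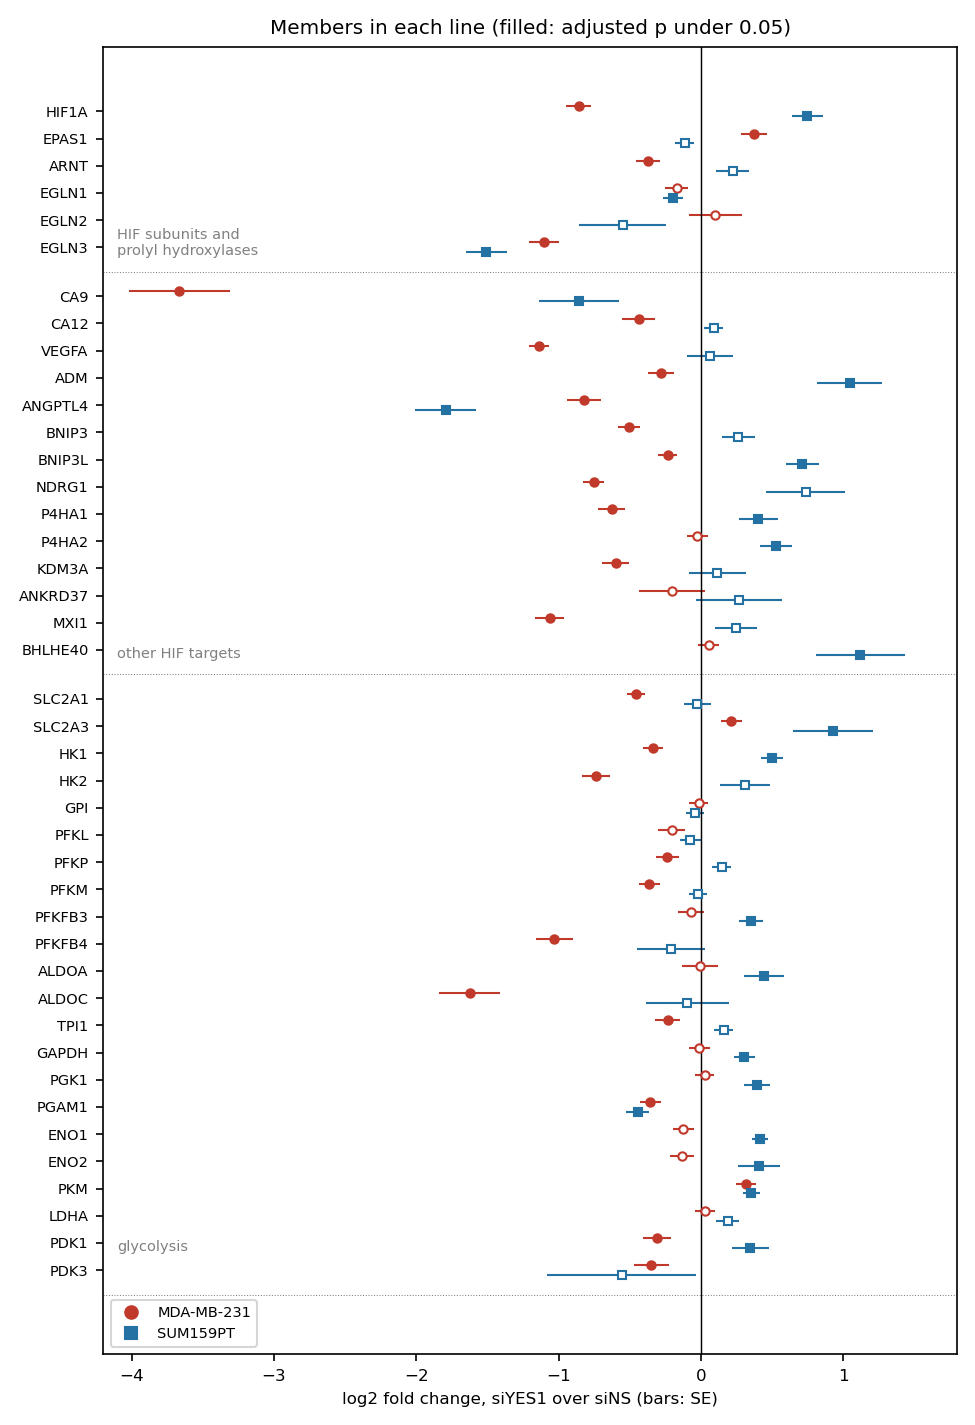
Log2 fold change of siYES1 over siNS (horizontal axis) for each of the 42 members (rows), in MDA-MB-231 (circles) and SUM159PT (squares), with bars of 1 standard error and filled symbols for an adjusted p under 0.05. Most circles lie left of 0 and most squares right of it, while EGLN3, CA9, ANGPTL4 and PGAM1 were called lower in both lines.

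Of the oxygen sensing genes, HIF1A showed the largest difference between the lines. HIF1A (ENSG00000100644, chr14:61695513-61748259, forward strand) encodes the alpha subunit of HIF that is found in nearly all cells. In MDA-MB-231 it measured 357, 308, 279.5 and 260.5 CPM in siNS libraries 1 to 4 and 170.1, 164, 164 and 167 in siYES1 libraries 1 to 4. In SUM159PT the same order of libraries gave 725, 1122, 1019 and 1024 CPM in siNS and 1662, 1678, 1567 and 1629 in siYES1. The groups did not overlap in either line, and siYES1 was the lower group in MDA-MB-231 and the higher in SUM159PT. The log2 fold change was -0.86 ± 0.087 (adjusted p = 4.91e-07) in MDA-MB-231 and 0.75 ± 0.11 (adjusted p = 0.000161) in SUM159PT.

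EPAS1 (ENSG00000116016, chr2:46293667-46386703, forward strand), the second alpha subunit, rose in MDA-MB-231 and was not called in SUM159PT. It measured 80.2, 58.8, 72.5 and 73.7 CPM in MDA-MB-231 siNS and 99.5, 95.3, 90.5 and 84.7 in siYES1, a rise of 0.37 ± 0.092 (adjusted p = 0.00278). In SUM159PT it measured 462, 459, 480.5 and 524 CPM in siNS and 438, 441, 438 and 462 in siYES1, and the groups overlapped (-0.11 ± 0.067, adjusted p = 0.202). ARNT, the shared beta subunit, had 51.5, 45.6, 42.8 and 46.9 CPM in MDA-MB-231 siNS and 38.7, 35.99, 33.2 and 36.8 in siYES1, and fell by 0.37 on the log2 scale (adjusted p = 0.00146). Its SUM159PT libraries held 53.6, 81.8, 77.8 and 73.1 CPM in siNS and 82.4, 81.3, 88.6 and 81.99 in siYES1, with siNS 1 below the rest and the groups overlapping (0.22 ± 0.12, adjusted p = 0.148).

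Among the prolyl hydroxylases EGLN3, itself a HIF target, fell in both lines. EGLN3 (ENSG00000129521, chr14:33924231-34462774, reverse strand) measured 23.9, 29.3, 25.99 and 23.4 CPM in MDA-MB-231 siNS and 12.2, 11.2, 13.3 and 11.1 in siYES1. In SUM159PT it measured 47.7, 37.5, 43.6 and 36.6 in siNS and 15.2, 12.7, 18 and 12.3 in siYES1. The groups were apart in each line, and the log2 fold change was -1.10 ± 0.10 (adjusted p = 2.3e-07) and -1.51 ± 0.14 (adjusted p = 5.61e-06). The difference between the lines, -0.31 ± 0.18 (adjusted p = 0.231), did not pass the test. EGLN1, the main sensor in most cells, had 91.3, 81.98, 95.9 and 91.6 CPM in MDA-MB-231 siNS and 87.8, 81.1, 80.2 and 71.5 in siYES1 (-0.17 ± 0.081, adjusted p = 0.0882). Its SUM159PT libraries held 129.6, 129.9, 131 and 124 and 119, 108, 113 and 109 CPM, a fall of small size (-0.20 ± 0.069, adjusted p = 0.0403). EGLN2 was low in all libraries, with counts made uncertain by its overlap with RAB4B-EGLN2. It measured 2.64, 2.75, 3.32 and 3.503 CPM in MDA-MB-231 siNS and 4.07, 2.68, 3.002 and 3.35 in siYES1, then 4.98, 2.49, 3.58 and 4.77 and 1.66, 3.37, 2.49 and 3.26 in SUM159PT, and was called in neither line.

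**Figure D2:**
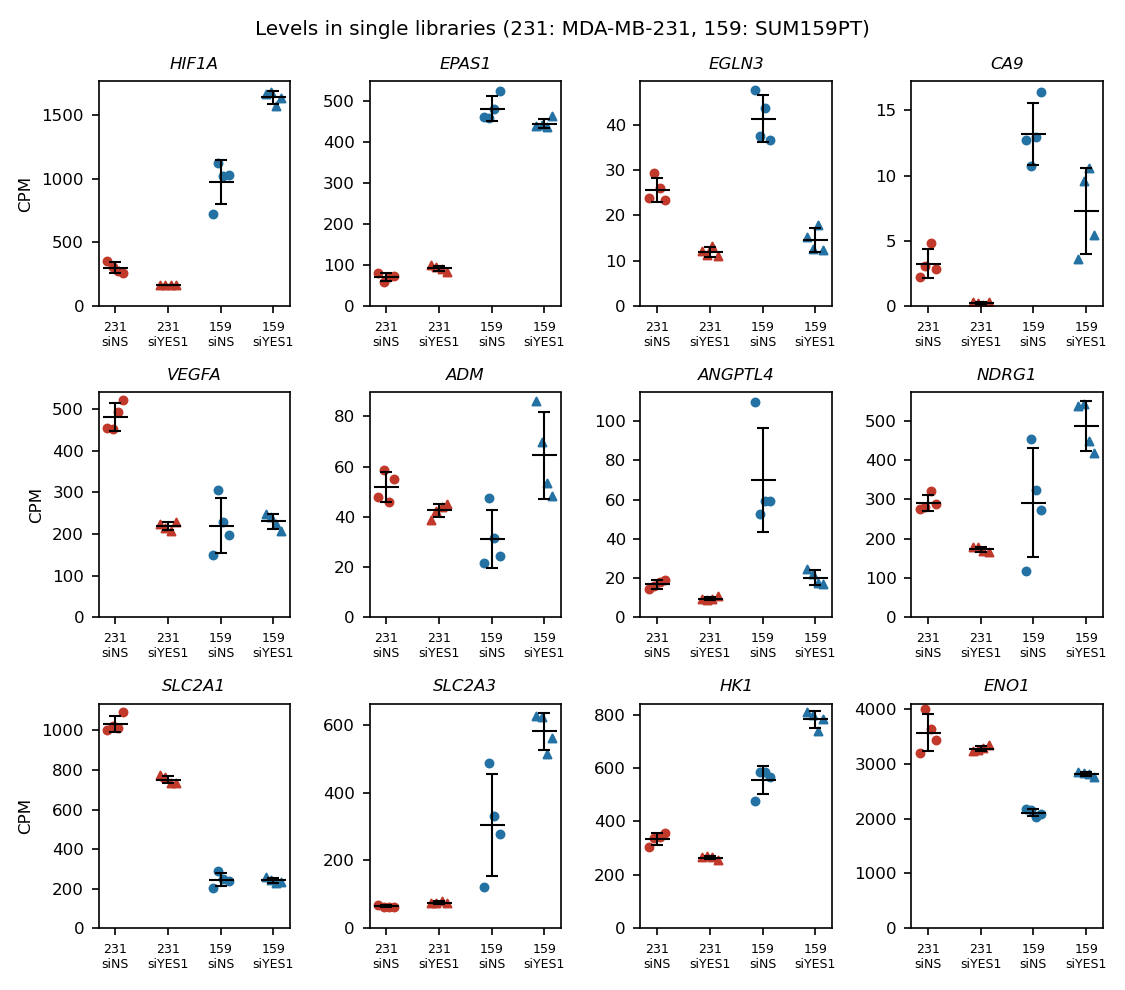
CPM (vertical axes, each from 0) of 12 members in the single libraries, with circles for siNS and triangles for siYES1, 4 libraries a group, and black marks for the mean and 1 SD. HIF1A and HK1 fell in MDA-MB-231 and rose in SUM159PT, EGLN3 and ANGPTL4 fell in both, and the SUM159PT siNS libraries spread widely for NDRG1 and SLC2A3.

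Because the HIF letters can be read in promoters, 4 promoters are shown for members that differ in them or in their response: ALDOC and BNIP3, which hold several matches, CA9, which had the largest fall and holds 1, and EGLN3, which fell in both lines and holds none in this window. Each runs 5′ to 3′ on the gene's strand, 250 bases before to 50 after a RefSeq start (GRCh38.p14). Capitals mark the motif ACGTG, the motif GCGTG, or either motif read on the other strand. Where ACGTG overlaps its own reverse complement, both are counted, which gives ALDOC 5 matches and BNIP3 6.
ALDOC (chr17:28576846-28577145, reverse strand): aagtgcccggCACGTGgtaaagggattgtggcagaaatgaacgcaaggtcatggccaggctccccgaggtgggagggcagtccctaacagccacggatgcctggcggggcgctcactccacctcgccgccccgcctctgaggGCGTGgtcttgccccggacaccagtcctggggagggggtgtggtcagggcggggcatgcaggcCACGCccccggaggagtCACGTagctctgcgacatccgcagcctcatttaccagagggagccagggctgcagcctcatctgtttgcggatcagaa
BNIP3 (chr10:131981874-131982173, reverse strand): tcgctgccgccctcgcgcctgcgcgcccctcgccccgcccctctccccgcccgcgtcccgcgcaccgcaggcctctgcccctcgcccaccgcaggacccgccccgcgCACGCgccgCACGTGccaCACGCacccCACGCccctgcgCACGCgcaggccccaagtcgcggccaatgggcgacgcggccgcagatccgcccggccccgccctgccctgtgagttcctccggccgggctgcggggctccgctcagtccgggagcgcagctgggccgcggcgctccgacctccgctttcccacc
CA9 (chr9:35673678-35673977, forward strand): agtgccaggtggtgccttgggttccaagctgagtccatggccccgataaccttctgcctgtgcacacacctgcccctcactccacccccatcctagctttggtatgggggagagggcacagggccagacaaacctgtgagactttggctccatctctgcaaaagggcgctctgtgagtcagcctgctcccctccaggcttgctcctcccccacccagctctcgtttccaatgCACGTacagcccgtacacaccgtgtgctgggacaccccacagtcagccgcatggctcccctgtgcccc
EGLN3 (chr14:33951025-33951324, reverse strand): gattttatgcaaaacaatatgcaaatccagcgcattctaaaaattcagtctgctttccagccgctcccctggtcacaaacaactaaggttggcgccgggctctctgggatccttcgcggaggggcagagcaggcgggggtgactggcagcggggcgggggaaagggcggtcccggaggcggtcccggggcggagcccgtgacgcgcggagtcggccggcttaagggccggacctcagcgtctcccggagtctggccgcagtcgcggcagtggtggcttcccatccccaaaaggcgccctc

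RefSeq promoters of this length were matched for 38 of the 42 members, 65 promoters in all; BNIP3L, SLC2A3, NDRG1 and VEGFA were not matched. At least 1 of the motifs was present in 44 of the 65 (67.7%), against 48.4% of all 35116 promoters. ACGTG on either strand was present in 41.5% of member promoters and 21.4% of all, and GCGTG in 40.0% and 36.5%. By group, 12 of 14 promoters of other HIF targets (85.7%), 28 of 43 of glycolysis genes (65.1%) and 4 of 8 of oxygen sensing genes (50%) held a match. Counted by gene, a match in at least 1 promoter was held by 20 of 21 glycolysis genes (95.2%) and 10 of 11 other HIF targets (90.9%). It was held by 4 of 6 oxygen sensing genes (66.7%) and by 52.4% of all genes. A gene with more promoters has more windows for a match. A match is a description of letters and does not show that HIF was bound there.

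Of the 3 groups the 14 other HIF targets had the medians farthest apart in the 2 lines. In MDA-MB-231 11 fell and 0 rose, with a median log2 fold change of -0.55, and P4HA2, ANKRD37 and BHLHE40 were not called. That is 78.6% called, against 52.4% of all genes tested (24.9% higher and 27.5% lower). In SUM159PT 5 rose (ADM, BNIP3L, P4HA1, P4HA2 and BHLHE40), and 2 fell (CA9 and ANGPTL4). The other 7 were not called there, and the median was 0.26. In that line 50% were called, against 36.8% of all genes tested (17.7% higher and 19% lower).

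CA9 (ENSG00000107159, chr9:35673856-35681159, forward strand), a membrane carbonic anhydrase that helps cells export acid and is a standard hypoxia marker, fell furthest in MDA-MB-231. There it measured 2.28, 3.12, 4.81 and 2.83 CPM in siNS and 0.318, 0.233, 0.125 and 0.322 in siYES1, which rests on 5, 4, 2 and 5 counts in the siYES1 libraries. Its siYES1 mean was 7.66% of siNS, a log2 fold change of -3.67 ± 0.36 (adjusted p = 2.84e-07). In SUM159PT it measured 12.7, 10.7, 12.98 and 16.4 CPM in siNS and 3.64, 9.57, 10.6 and 5.48 in siYES1, again with the groups apart but with siYES1 libraries spread from 3.64 to 10.6 (-0.85 ± 0.28, adjusted p = 0.0299). CA9 overlaps ARHGEF39 on the opposite strand, and the strand setting of the counting is not given in the sources used here. CA12, a second carbonic anhydrase of the cell surface, had 45.4, 38.9, 56.1 and 41.3 CPM in MDA-MB-231 siNS and 37.8, 35.99, 29.1 and 31.1 in siYES1, a fall of 0.44 on the log2 scale (adjusted p = 0.00436). In SUM159PT it had 415, 402, 455 and 453 CPM in siNS and 452, 470.2, 451 and 462 in siYES1, with overlapping groups (0.090 ± 0.066, adjusted p = 0.316).

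The 3 secreted factors each followed a different pattern. VEGFA, the main growth factor of blood vessels, measured 455, 453, 493 and 521 CPM in MDA-MB-231 siNS and 224, 215, 207 and 228 in siYES1, so that siYES1 held 45.4% of the control (-1.14 ± 0.072, adjusted p = 2.11e-09). In SUM159PT its siNS libraries ranged from 150 to 306 CPM (150, 306, 228 and 197) and enclosed the siYES1 libraries at 249, 241, 224 and 207 (0.064 ± 0.16, adjusted p = 0.792). ADM, which encodes the vasodilator peptide adrenomedullin, had 47.8, 58.5, 45.8 and 55.1 CPM in MDA-MB-231 siNS and 38.9, 42.3, 44.02 and 45.1 in siYES1. Its SUM159PT libraries held 21.5, 47.4, 31.4 and 24.6 CPM in siNS and 86.1, 69.8, 53.3 and 48.4 in siYES1, and the groups were just apart. ADM thus fell in MDA-MB-231 (-0.28 ± 0.091, adjusted p = 0.0155) and rose in SUM159PT (1.04 ± 0.23, adjusted p = 0.00331). ANGPTL4, an inhibitor of lipoprotein lipase, fell in both lines, from 14.2, 15.96, 18.1 and 19.1 to 9.22, 8.69, 9.32 and 10.8 CPM in MDA-MB-231 (-0.82 ± 0.12, adjusted p = 2.32e-05). In SUM159PT it fell from 109.6, 52.5, 59.1 and 59.4 to 24.8, 21.9, 17.2 and 16.9 (-1.79 ± 0.22, adjusted p = 4.13e-05), with siNS 1 far above the other siNS libraries. Without that library the fall was -1.50 (adjusted p = 5.72e-09).

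BNIP3 and BNIP3L are receptors that mark mitochondria for removal. BNIP3 had 176, 196, 198 and 164 CPM in MDA-MB-231 siNS and 120.4, 126, 132 and 138 in siYES1 (-0.51 ± 0.079, adjusted p = 4.76e-05), and 115, 175, 155 and 137 and 185, 179.7, 179 and 154 in SUM159PT, where the groups overlapped (0.26 ± 0.12, adjusted p = 0.0912). BNIP3L had 111, 106, 111 and 102 CPM in MDA-MB-231 siNS and 93.2, 88.3, 92.5 and 91.9 in siYES1, a smaller fall (-0.23 ± 0.069, adjusted p = 0.00895). In SUM159PT it measured 94.6, 143, 135 and 113 and 211, 205, 201 and 181, a rise with the groups apart (0.71 ± 0.12, adjusted p = 0.000376).

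P4HA1 and P4HA2 are catalytic subunits of the enzyme that hydroxylates collagen. P4HA1 had 109.6, 110, 97.8 and 82.3 CPM in MDA-MB-231 siNS and 61.4, 66.5, 67.8 and 62.9 in siYES1 (-0.63 ± 0.092, adjusted p = 2.45e-05), and 109, 190.1, 173 and 164 and 214, 219, 216 and 193 in SUM159PT (0.40 ± 0.14, adjusted p = 0.0317). It fell in the first line and rose in the second, with groups apart in both. P4HA2 had 67.6, 72.2, 76.7 and 73.8 CPM in MDA-MB-231 siNS and 67.9, 70.2, 74.4 and 72.8 in siYES1, which overlapped (-0.024 ± 0.074, adjusted p = 0.804). In SUM159PT its siNS libraries held 101, 159.3, 143 and 142 CPM and all siYES1 libraries lay above them at 200.3, 197, 196 and 194 (0.53 ± 0.11, adjusted p = 0.0026).

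The stress response gene NDRG1 measured 275, 279.5, 320.5 and 289 CPM in MDA-MB-231 siNS and 179.6, 178, 168 and 165 in siYES1, a fall with groups apart (-0.75 ± 0.072, adjusted p = 2.19e-07). In SUM159PT its siNS libraries ranged from 116.6 to 453 CPM (117, 453, 324 and 274) and its siYES1 libraries held 538, 544, 448 and 418. That difference did not pass the test (0.74 ± 0.28, adjusted p = 0.0539).

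The 4 nuclear proteins of the list were KDM3A, a histone demethylase, MXI1, which opposes MYC, the ankyrin repeat protein ANKRD37 and BHLHE40, a transcriptional repressor. KDM3A had 70.3, 60.5, 59.8 and 52.4 CPM in MDA-MB-231 siNS and 36.9, 42, 43.2 and 38.5 in siYES1 (-0.60 ± 0.094, adjusted p = 5.23e-05), and 53.96, 138, 100.1 and 89.2 and 119, 99.5, 94.5 and 99.9 in SUM159PT, where siYES1 lay inside the siNS range (0.12 ± 0.20, adjusted p = 0.693). MXI1 fell from 23.2, 21.4, 23.1 and 22 to 11.8, 11.5, 9.44 and 10.2 CPM in MDA-MB-231 (-1.06 ± 0.10, adjusted p = 2.32e-07). In SUM159PT it measured 62.8, 121, 95.3 and 95.6 in siNS and 115, 109, 108 and 112 in siYES1, with overlap (0.25 ± 0.15, adjusted p = 0.205). BHLHE40 showed no such fall: its MDA-MB-231 libraries held 57.7, 56.7, 59.1 and 54.04 CPM in siNS and 62.8, 57.05, 58.5 and 57.9 in siYES1 (0.054 ± 0.073, adjusted p = 0.565). It rose in SUM159PT, from 69.9, 328, 205 and 170 to 490.1, 461, 360.4 and 368 CPM (1.12 ± 0.32, adjusted p = 0.0136), all siYES1 libraries above all siNS libraries. ANKRD37 stayed between 2.00 and 6.69 CPM in all 16 libraries and was called in neither line.

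The 22 genes of glucose uptake and glycolysis fell more often than they rose in MDA-MB-231 and rose more often than they fell in SUM159PT. In MDA-MB-231 11 fell, 2 rose and 9 were not called, and the median was -0.22. The share called was 59.1%, against 52.4% of all genes tested (24.9% higher and 27.5% lower). In SUM159PT 10 rose and 1 fell, 11 were not called, and the median was 0.25. The share called was 50%, against 36.8% of all genes tested (17.7% higher and 19% lower). The SUM159PT balance depends on the scaling: with total counts 4 were called higher and 4 lower, and the median was 0.076. PFKFB3, ALDOA, GAPDH, PGK1, ENO2 and PDK1 lost their calls there, and GPI, PFKL and PFKM were called lower.

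At the first step, glucose uptake, the basal transporter SLC2A1 measured 1004, 1021, 1013 and 1092 CPM in MDA-MB-231 siNS and 774, 764, 735 and 736 in siYES1, a fall with groups apart (-0.46 ± 0.065, adjusted p = 1.9e-05). In SUM159PT it held 205, 288, 252 and 241 CPM in siNS and 261, 246, 230.1 and 232 in siYES1 and was not called (-0.024 ± 0.10, adjusted p = 0.869). SLC2A3 (ENSG00000059804, chr12:7919230-7936275, reverse strand), a transporter of higher affinity, rose in both lines. Its MDA-MB-231 libraries held 69.7, 63.6, 64.1 and 63 CPM in siNS and 74.7, 73.3, 80.9 and 73.3 in siYES1 (0.21 ± 0.074, adjusted p = 0.0221), and its SUM159PT libraries 121, 487, 332 and 277 and 625, 622, 513 and 560.5 (0.93 ± 0.28, adjusted p = 0.02). The groups were apart in each line, although siNS libraries of SUM159PT ranged from 121.2 to 487 CPM. The MDA-MB-231 rise did not pass with total counts as the scaling (0.17, adjusted p = 0.0753) or in a joint fit of the 16 libraries (0.16, adjusted p = 0.64).

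HK1 and HK2 are the hexokinases that trap glucose in the cell. HK1 had 305, 337, 342 and 356 CPM in MDA-MB-231 siNS and 266, 270.4, 265 and 258 in siYES1, and 476, 586, 585 and 568 and 809, 798, 738 and 785 in SUM159PT. It fell in the first line (-0.34 ± 0.069, adjusted p = 0.000584) and rose in the second (0.50 ± 0.077, adjusted p = 0.000269), with the groups apart in both. HK2 had 231, 192, 261 and 265 CPM in MDA-MB-231 siNS and 157, 151, 131 and 131 in siYES1, a larger fall (-0.73 ± 0.10, adjusted p = 9.91e-06). Its SUM159PT siNS libraries, 134, 287, 234 and 201 CPM, overlapped the siYES1 libraries at 307, 265, 239 and 249 (0.31 ± 0.17, adjusted p = 0.185).

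Phosphofructokinase, the committed step of glycolysis, is built from the subunits PFKP, PFKL and PFKM. PFKP had 421, 451, 518 and 534 CPM in MDA-MB-231 siNS and 420.2, 418, 398 and 397 in siYES1, just apart (-0.24 ± 0.080, adjusted p = 0.02), and 600, 657, 688 and 683 and 734, 733, 707 and 735 in SUM159PT (0.15 ± 0.065, adjusted p = 0.0944). PFKM had 89.2, 90.4, 94.9 and 103 and 70.98, 76.6, 73.04 and 73.1 CPM in MDA-MB-231, a fall (-0.36 ± 0.074, adjusted p = 0.0006), and 227, 221, 229 and 225 and 221, 217, 226 and 224 in SUM159PT, where the groups overlapped (-0.021 ± 0.062, adjusted p = 0.822). PFKL was called in neither line, at -0.21 and -0.073. PFKFB3 and PFKFB4 make and break down the sugar phosphate that activates this enzyme. PFKFB3 had 61.5, 60.6, 81.4 and 74.2 CPM in MDA-MB-231 siNS and 67.4, 66.8, 66.6 and 63.5 in siYES1, with overlap (-0.070 ± 0.094, adjusted p = 0.557). In SUM159PT it rose from 44.8, 46.8, 47.5 and 42.2 to 61.1, 59.03, 53.99 and 57.4 CPM (0.35 ± 0.084, adjusted p = 0.00535). PFKFB4 fell in MDA-MB-231, from 25.2, 24.6, 36.5 and 32.6 to 13.04, 15.6, 15.6 and 13.8 CPM (-1.03 ± 0.13, adjusted p = 4.34e-06), and held 5.27, 13.5, 8.67 and 8.198 and 7.17, 8.48, 7.57 and 7.52 in SUM159PT (-0.21 ± 0.24, adjusted p = 0.523).

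Of the aldolases, which split the sugar, ALDOC (ENSG00000109107, chr17:28573115-28577264, reverse strand) had the largest fall of the glycolysis genes in MDA-MB-231. It measured 4.01, 5.23, 4.64 and 4.07 CPM in siNS and 1.34, 1.05, 1.38 and 2.06 in siYES1, 32.4% of the control mean (-1.62 ± 0.21, adjusted p = 8.07e-06). In SUM159PT its siNS libraries held 14.6, 59.3, 30.5 and 33.1 CPM and its siYES1 libraries 31.8, 38.3, 29.4 and 28.96, which lay inside the siNS range (-0.10 ± 0.29, adjusted p = 0.826). ALDOA rose in SUM159PT with overlapping groups (0.44 ± 0.14, adjusted p = 0.0276) and was not called in MDA-MB-231 (-0.008 ± 0.13). TPI1, which interconverts the triose phosphates, had 597, 777, 624 and 601 CPM in MDA-MB-231 siNS and 517, 552, 548 and 594 in siYES1, with siNS 2 above the rest (-0.23 ± 0.086, adjusted p = 0.032). Without siNS 2 the change was -0.14 (adjusted p = 0.0951). In SUM159PT TPI1 held 593, 565, 518 and 512 and 614, 637, 593 and 601 CPM, apart but not past the test (0.16 ± 0.068, adjusted p = 0.085).

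Of the lower steps of glycolysis, which yield ATP, GAPDH, PGK1, ENO1 and ENO2 rose in SUM159PT and were not called in MDA-MB-231. With total counts as the scaling only ENO1 of these 4 kept its SUM159PT call, and GAPDH (0.14, adjusted p = 0.0811), PGK1 (0.22, adjusted p = 0.116) and ENO2 (0.24, adjusted p = 0.181) did not pass, while ENO1 was called lower in MDA-MB-231 (-0.17, adjusted p = 0.0499). GAPDH had 1810, 2167, 1856 and 1835 CPM in MDA-MB-231 siNS and 1843, 1830, 1896 and 2042 in siYES1 (-0.011 ± 0.076, adjusted p = 0.919), and 2152, 2663, 2429 and 2530 and 2951, 3247, 3008 and 2858 in SUM159PT (0.30 ± 0.073, adjusted p = 0.00551). PGK1, which makes the first ATP of the pathway, had 694, 721, 803 and 721 and 715, 773, 736 and 767 CPM in MDA-MB-231 (0.026 ± 0.069, adjusted p = 0.782), and 553, 423, 428 and 420.2 and 583, 623, 635 and 559 in SUM159PT (0.40 ± 0.093, adjusted p = 0.00484). For both genes the siNS and siYES1 libraries overlapped in MDA-MB-231 and were apart in SUM159PT. The enolase ENO1 (ENSG00000074800, chr1:8861000-8879250, reverse strand) had 3197, 4000, 3638 and 3440 CPM in MDA-MB-231 siNS and 3225, 3258, 3290 and 3336 in siYES1 (-0.12 ± 0.075, adjusted p = 0.183). In SUM159PT it had 2167, 2163, 2030 and 2085 and 2849, 2832, 2821 and 2767, with little spread within a group and the groups well apart (0.42 ± 0.055, adjusted p = 7.79e-05). The second enolase, ENO2, had 90.8, 94.7, 115 and 106 and 91.5, 92.2, 86.7 and 99.7 CPM in MDA-MB-231 (-0.13 ± 0.084, adjusted p = 0.201), and 46.7, 81.8, 58.05 and 63.5 and 83.4, 93.8, 85.7 and 68.9 in SUM159PT, with overlap (0.41 ± 0.15, adjusted p = 0.0447).

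PKM, the pyruvate kinase of the last ATP-yielding step, rose in both lines, from 3040 ± 210 to 3781 ± 124 CPM (SD, n = 4) in MDA-MB-231 (0.32 ± 0.071, adjusted p = 0.00133) and from 1582 ± 83.5 to 2022 ± 28.7 in SUM159PT (0.35 ± 0.059, adjusted p = 0.000489). The mutase PGAM1 fell in both, at -0.36 ± 0.074 (adjusted p = 0.000723) and -0.45 ± 0.080 (adjusted p = 0.00081). GPI, PFKL and LDHA, the lactate dehydrogenase subunit that many tumors express strongly, were called in neither line, with LDHA at 0.028 ± 0.068 and 0.19 ± 0.081. PDK1 and PDK3 are kinases that switch off pyruvate dehydrogenase and so keep pyruvate from the mitochondria. PDK1 had 32.7, 29.97, 26.6 and 25.04 CPM in MDA-MB-231 siNS and 22.96, 22.2, 24.5 and 22.7 in siYES1 (-0.31 ± 0.10, adjusted p = 0.0136), and 34.4, 32.5, 27.5 and 25.1 and 39.9, 35.8, 43.8 and 32.6 in SUM159PT, where the groups overlapped (0.35 ± 0.13, adjusted p = 0.0484). PDK3 fell in MDA-MB-231 (-0.35 ± 0.12, adjusted p = 0.0245) and lay at or under 1.32 CPM in SUM159PT.

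The difference between the lines was tested itself, as the SUM159PT effect minus the MDA-MB-231 effect over all 16 libraries. It was called for 30 of the 42 members (71.4%), 28 higher in SUM159PT and 2 lower (EPAS1 and ANGPTL4). Of the 16299 genes tested 24.3% were called, 15.4% higher and 8.85% lower. The difference had a median of 0.63 over the members and 0.030 over all genes. In 34 of the 42 members the log2 fold change in SUM159PT was above that in MDA-MB-231, and this order was not counted over all genes. With total counts as the scaling the share of all called genes that were higher moved from 63.5% to 33%, the median of all genes from 0.030 to -0.19, and 21 of the 30 calls were kept. The 9 that were lost were PFKP, PFKM, PFKFB3, PFKFB4, TPI1, GAPDH, PGK1, ENO2 and KDM3A. With TMM factors set within each line, all 30 calls were kept and the median was 0.53.

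Of the members, 6 were called lower in MDA-MB-231, higher in SUM159PT, and different between the lines: HIF1A, HK1, PDK1, ADM, BNIP3L and P4HA1. Their differences were 1.70 ± 0.15, 0.93 ± 0.10, 0.75 ± 0.17, 1.42 ± 0.27, 1.04 ± 0.14 and 1.13 ± 0.17 in that order, with adjusted p from 4.86e-08 for HIF1A to 0.00234 for PDK1. With total counts as the scaling the SUM159PT rises of PDK1 (0.18, adjusted p = 0.337) and P4HA1 (0.24, adjusted p = 0.133) did not pass, and in a joint fit of the 16 libraries the MDA-MB-231 fall of ADM did not (-0.34, adjusted p = 0.176). HIF1A, HK1 and BNIP3L kept both calls under these settings. Taken singly, 27.5% of all genes tested were called lower in MDA-MB-231, 17.7% higher in SUM159PT and 15.4% higher in the difference. The share of all genes with these calls together was not counted, so the 6 cannot be set against it. The largest difference was that of CA9 at 2.91 ± 0.53 (adjusted p = 0.000365), a gene that fell in both lines. ANGPTL4 fell in both lines, by more in SUM159PT (-0.87 ± 0.27, adjusted p = 0.0206). SLC2A3, PKM, PGAM1 and EGLN3, called in the same direction in both lines, had differences of 0.81 ± 0.32, 0.14 ± 0.089, 0.008 ± 0.11 and -0.31 ± 0.18, none past the test. That does not show that the lines acted alike on them.

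Set beside the other HIF targets, the glycolysis genes had smaller changes between the lines. The median difference was 0.50 for the 22 glycolysis genes, with 14 called higher and 0 lower, and 1.09 for the 14 other HIF targets, with 12 higher and 1 lower. The 6 oxygen sensing genes had a median of -0.12, with 2 higher and 1 lower. Over all genes tested 15.4% were called higher and 8.85% lower. These medians are a description, and the 2 groups were not tested against each other. As a share of all counts, the glycolysis genes took 1.52 ± 0.0662% (SD, n = 4) in MDA-MB-231 siNS and 1.44 ± 0.0264% in siYES1, and 1.22 ± 0.0397% and 1.33 ± 0.0297% in SUM159PT. The other HIF targets took 0.152 ± 0.00485% in MDA-MB-231 siNS and 0.0930 ± 0.000676% in siYES1, and 0.211 ± 0.0420% and 0.253 ± 0.0176% in SUM159PT. The siNS and siYES1 shares of the other HIF targets were thus far apart in MDA-MB-231, while those of SUM159PT overlapped: siNS ran from 0.160% in library 1 to 0.261% in library 2, and siYES1 held 0.270%, 0.265%, 0.246% and 0.232% in libraries 1 to 4, of which 1 and 2 lay above every siNS library.

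**Figure D3:**
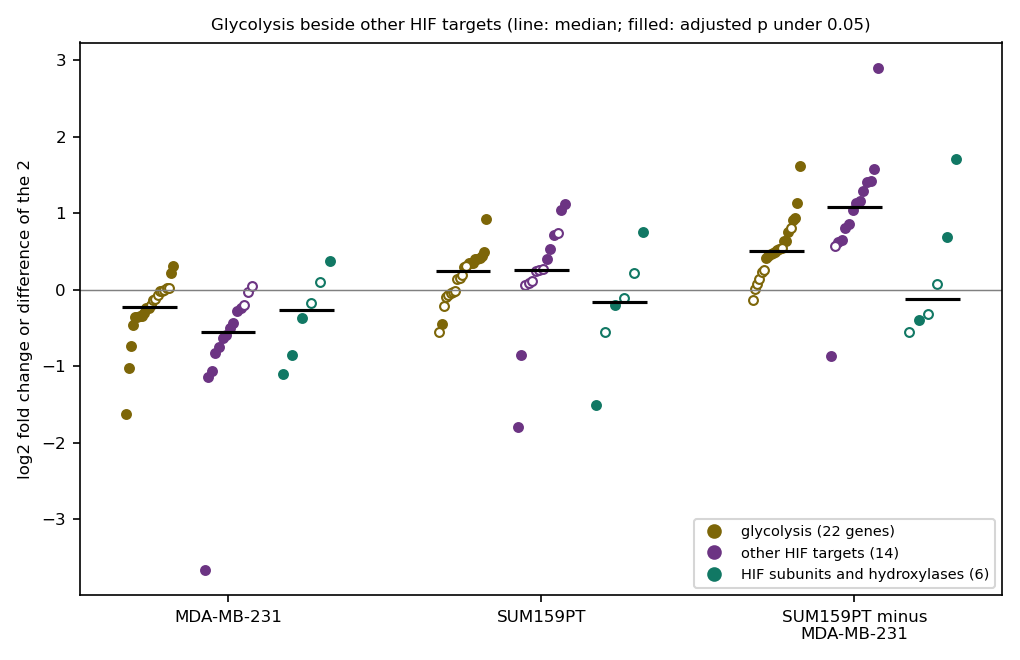
Log2 fold changes of siYES1 over siNS in each line, and their difference (vertical axis), for each member of the 3 groups, with black lines for medians and filled points for an adjusted p under 0.05. In MDA-MB-231 the other HIF targets reach lower than the glycolysis genes (medians -0.55 and -0.22), in SUM159PT the medians are alike (0.26 and 0.25), and in the difference they are 1.09 and 0.50.

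Levels between genes are compared per kilobase of exon (CPM per kb). The most abundant members in MDA-MB-231 siNS were ENO1 at 676 ± 64.4 and GAPDH at 643 ± 56.3 CPM per kb (SD, n = 4), which did not differ beyond their spread. They were followed by PKM at 355 ± 24.5, then TPI1 at 241 ± 31.7, LDHA at 228 ± 12.8 and SLC2A1 at 219 ± 8.52, whose ranges met. In SUM159PT siNS the order was GAPDH at 819.6 ± 72.7, ENO1 at 400.2 ± 12.5, then TPI1 at 203 ± 14.4, HIF1A at 189 ± 33.3 and PKM at 184 ± 9.74, the last 3 within their spread. HIF1A ranked 4 of the 42 members there and 10 in MDA-MB-231 siNS, at 58.5 ± 8.17. At the low end were EGLN2, whose counts are uncertain, at 0.464 ± 0.0641 in MDA-MB-231 siNS and PDK3 at 0.178 ± 0.0853 in SUM159PT siNS.

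The balance between related members shifted too in some families, given here as shares of summed CPM per kb (SD, n = 4). EPAS1 made up 14.4 ± 2.08% of the HIF alpha messages in MDA-MB-231 siNS and 28.2 ± 1.32% in siYES1, but 26.2 ± 3.62% and 16.1 ± 0.531% in SUM159PT. The share went up in one line and down in the other, with no overlap of libraries in either. EGLN3 fell from 21.4 ± 2.71% to 12.4 ± 0.984% of the prolyl hydroxylase messages in MDA-MB-231 and from 23.4 ± 1.96% to 11.04 ± 1.59% in SUM159PT. That sum includes EGLN2, whose counts are uncertain because of its overlap with RAB4B-EGLN2. SLC2A3 was 4.62 ± 0.337% of SLC2A1 and SLC2A3 together in MDA-MB-231 siNS and 7.16 ± 0.43% in siYES1, against 46.2 ± 10.8% and 64.7 ± 1.17% in SUM159PT. PFKFB4 went from 29.9 ± 1.04% to 18.02 ± 1.3% of PFKFB3 and PFKFB4 in MDA-MB-231. The share of PFKP among the phosphofructokinase subunits was 71.3 ± 0.387% and 71.5 ± 0.406% in that line, a smaller gap than the SD of either group. In SUM159PT it was 73.96 ± 1.26% in siNS and 76.4 ± 0.341% in siYES1, a small rise with no overlap of libraries. ENO2 made up 3.4 ± 0.407% of the enolases in MDA-MB-231 siNS and 3.362 ± 0.166% in siYES1. In SUM159PT it made up 3.517 ± 0.766% and 3.497 ± 0.392%. In each line the gap was smaller than the SD of either group.

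**Figure D4:**
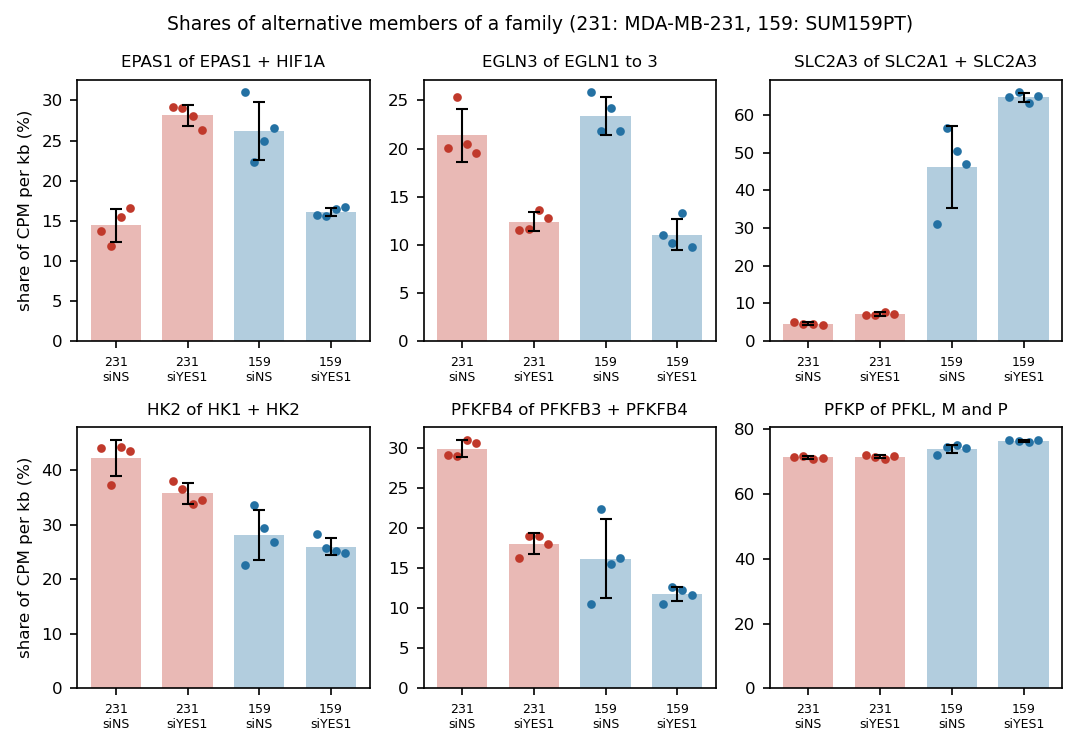
Share (%) of summed CPM per kb held by 1 member of a family (vertical axes, from 0), with bars for means, error bars for 1 SD and points for the 4 libraries of each group. The EPAS1 share rose from 14.4% to 28.2% in MDA-MB-231 and fell from 26.2% to 16.1% in SUM159PT, and the EGLN3 share fell in both. The PFKP share lay between 70.8% and 76.6% in all libraries, with SUM159PT siYES1 slightly above SUM159PT siNS.

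The control libraries of SUM159PT did not behave alike, either for the hypoxia genes or over all genes. Among the 14 other HIF targets siNS 1 was the lowest siNS library for 11 and siNS 2 the highest for 11. Over all genes tested siNS 1 was lowest for 36.3% and highest for 35.7%, and siNS 2 was lowest for 28.2% and highest for 28.5%. The median coefficient of variation over siNS libraries was 25.4% for the 13 other HIF targets at 5 CPM or more, 10.4% for 21 glycolysis genes and 13.4% for all such genes. The highest siNS library was 4.69 times the lowest for BHLHE40, 4.07 times for ALDOC, 4.02 times for SLC2A3 and 3.89 times for NDRG1. In MDA-MB-231 siNS the corresponding median was 8.01% for 12 other HIF targets, against 10.8% for all genes. There siNS 1 was the lowest siNS library for 15 of the 22 glycolysis genes, against 31.3% of all genes.

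Without SUM159PT siNS 1 all 21 calls in that line were kept, and TPI1 (0.19, adjusted p = 0.00587), LDHA (0.26, 0.000543), EPAS1 (-0.14, 0.0432) and NDRG1 (0.47, 0.00372) were called as well. The median over the members went from 0.24 to 0.12, over the glycolysis genes from 0.25 to 0.22 and over the other HIF targets from 0.26 to 0.12. P4HA1 went from 0.40 to 0.25 and BHLHE40 from 1.12 to 0.84. All 30 calls of the difference between lines were kept, with a median of 0.48 in place of 0.63, and SLC2A3 (0.49, adjusted p = 0.0323) and LDHA (0.27, 0.0242) were added.

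Leaving out other single libraries moved the following calls across the threshold. Those of EGLN1, PDK1 and ENO2 in SUM159PT were lost without any of several libraries, so no single library decided them. In SUM159PT the adjusted p of CA9 was 0.0575 without siNS 3, 0.0961 without siNS 4, 0.066 without siYES1 1 and 0.0929 without siYES1 4, that of SLC2A3 was 0.0608 without siNS 4, 0.0504 without siYES1 1 and 0.0516 without siYES1 2, and that of ALDOA was 0.0837 without siNS 3, 0.0624 without siNS 4, 0.103 without siYES1 2 and 0.0503 without siYES1 4. That of ENO2 was 0.111 without siNS 3, 0.0869 without siNS 4, 0.0895 without siYES1 1, 0.13 without siYES1 2 and 0.0973 without siYES1 3, and that of P4HA1 was 0.0612 without siNS 4, 0.0715 without siYES1 1, 0.0791 without siYES1 2 and 0.0724 without siYES1 3. PDK1 was at 0.122 without siNS 3, 0.137 without siNS 4, 0.114 without siYES1 1, 0.0689 without siYES1 2 and 0.144 without siYES1 3, and EGLN1 at 0.0693 without siNS 2, 0.0998 without siNS 3, 0.055 without siNS 4, 0.0537 without siYES1 1, 0.127 without siYES1 2, 0.0859 without siYES1 3 and 0.112 without siYES1 4. Without SUM159PT siNS 2, HK2, BNIP3, NDRG1 and MXI1 were also called, at 0.48 (adjusted p = 0.0296), 0.36 (adjusted p = 0.0205), 1.03 (adjusted p = 0.00739), 0.39 (adjusted p = 0.0325). In MDA-MB-231 the adjusted p of PFKP was 0.0656 without siNS 3, 0.0697 without siNS 4, 0.0639 without siYES1 3 and 0.0589 without siYES1 4, and that of TPI1 was 0.0951 without siNS 2, 0.106 without siYES1 1, 0.0726 without siYES1 2 and 0.0796 without siYES1 3. SLC2A3 was at 0.0513 without siNS 4 and 0.0857 without siYES1 3, PDK3 at 0.103 without siYES1 3 and ADM at 0.0642 without siYES1 1. In MDA-MB-231, PFKL was called without siNS 1 (0.0115) and without siNS 2 (0.0329), ENO1 without siNS 1 (0.03) and EGLN1 without siNS 2 (0.0343). For the difference between lines, EPAS1 was at 0.0534 without MDA-MB-231 siYES1 1 and ANGPTL4 at 0.0503 without MDA-MB-231 siYES1 4. The difference of ALDOA passed without MDA-MB-231 siNS 3 (0.0228), SUM159PT siNS 2 (0.00864) or SUM159PT siYES1 3 (0.0445), and that of SLC2A3 without SUM159PT siNS 2 (0.00233).

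**Figure D5:**
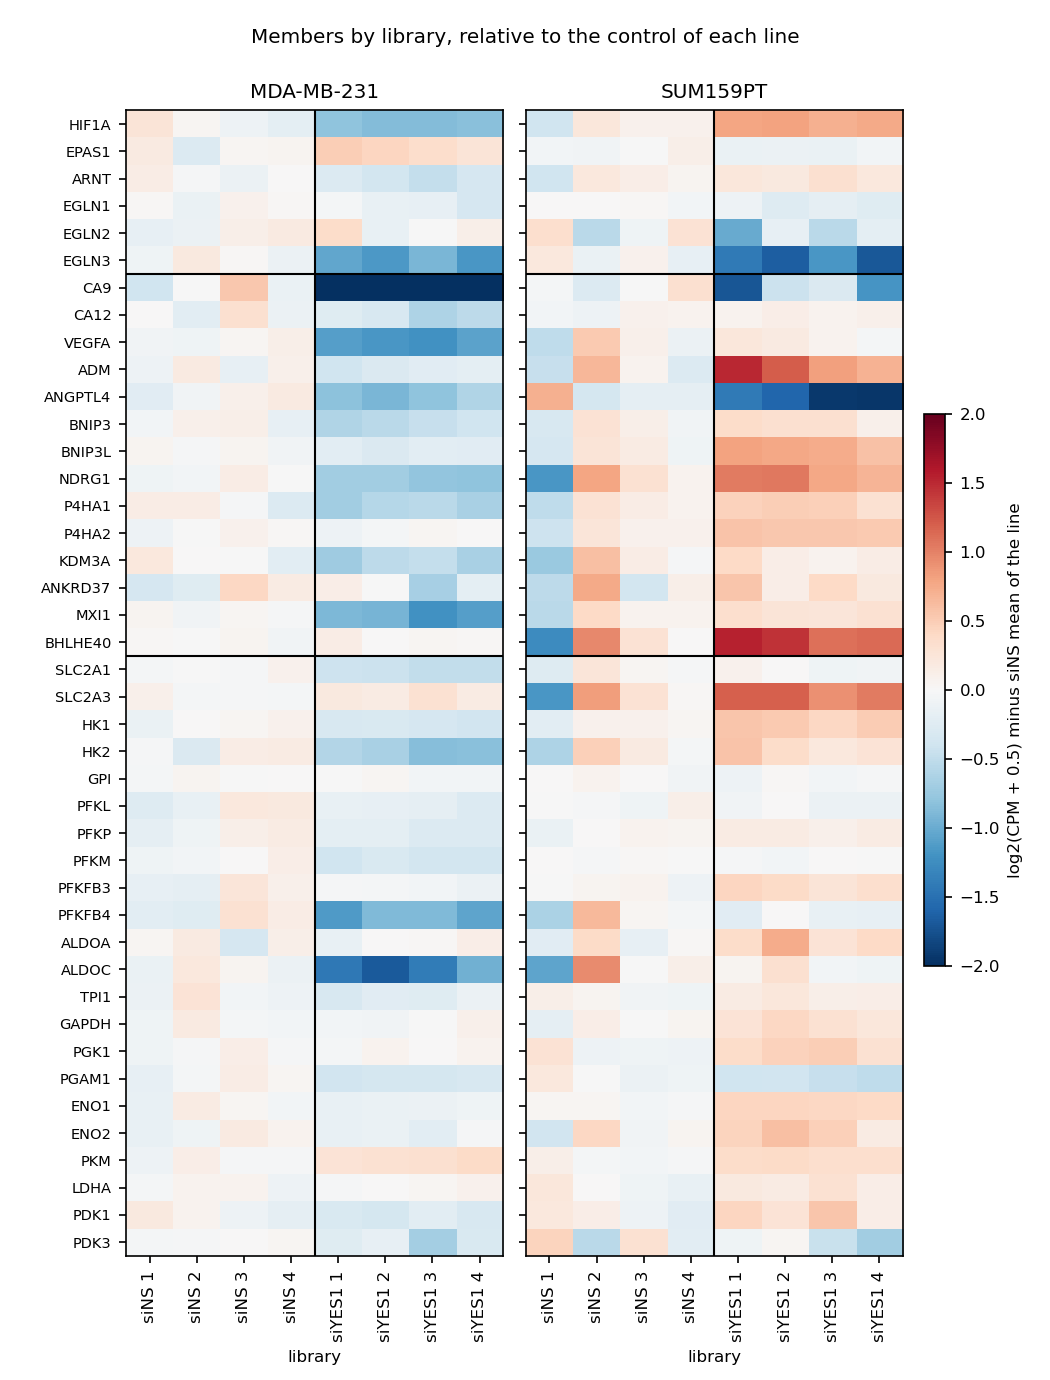
Members (rows) by library (columns), coloured by log2(CPM + 0.5) minus the mean over the siNS libraries of the same line, on a scale that ends at -2 and 2. The MDA-MB-231 siYES1 columns are mostly blue and the SUM159PT siYES1 columns mostly red, and SUM159PT siNS 1 is blue and siNS 2 red for most other HIF targets. CA9 in MDA-MB-231 siYES1 lies beyond the end of the scale.

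A wider list of 50 symbols of the same pathways, with no member among them, was matched for 47 genes. In MDA-MB-231 8 of the 44 tested rose and 18 fell, and in SUM159PT 20 of the 43 tested rose and 8 fell. In MDA-MB-231 59.1% were called, against 52.4% of all genes (24.9% higher and 27.5% lower). In SUM159PT 65.1% were called, against 36.8% of all genes (17.7% higher and 19% lower). The difference between lines was called for 30 of 45 (66.7%), 24 higher in SUM159PT and 6 lower, against 24.3% of all genes. DDIT4, a stress gene that restrains mTOR and a HIF target, measured 47.6, 43.1, 88 and 77.3 CPM in MDA-MB-231 siNS and 32.6, 32.1, 27.1 and 24.98 in siYES1, a fall of 1.13 on the log2 scale (adjusted p = 6.86e-05). In SUM159PT it measured 174, 374, 266 and 245 and 459.9, 427, 339.6 and 367 (0.59 ± 0.18, adjusted p = 0.0203), and its difference was 1.81 ± 0.29 (adjusted p = 8.58e-05). STC2, a secreted glycoprotein, fell in MDA-MB-231 from a mean of 1.58 ± 0.493 to 0.758 ± 0.1101 CPM (-1.06 ± 0.30, adjusted p = 0.00673).

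In SUM159PT the hexokinase-like gene HKDC1 rose from a low level, 0.303 ± 0.226 to 1.75 ± 0.634 CPM (2.47 ± 0.57, adjusted p = 0.00425), and fell in MDA-MB-231 (-0.52 ± 0.11, adjusted p = 0.000975). ARNT2, a second beta subunit, fell from 4.61 ± 1.12 to 1.46 ± 0.39 CPM in SUM159PT (-1.65 ± 0.29, adjusted p = 0.000773) and from 108 ± 1.84 to 55.7 ± 3.97 in MDA-MB-231 (-0.96 ± 0.074, adjusted p = 2.18e-08). The kinase PDK2 fell in SUM159PT (-1.17 ± 0.20, adjusted p = 0.000529) and in MDA-MB-231 (-0.37 ± 0.090, adjusted p = 0.00272), with a difference of -0.70 ± 0.20 (adjusted p = 0.0116). The lipoprotein receptor VLDLR fell in both lines (-0.99 ± 0.10, adjusted p = 3.25e-07, and -1.04 ± 0.20, adjusted p = 0.00123), and its difference of 0.047 ± 0.23 did not pass the test. The genes of the ubiquitin ligase that marks HIF alpha subunits for degradation went in different directions. VHL, its substrate receptor, fell in SUM159PT (-0.35 ± 0.092, adjusted p = 0.00969) and was not called in MDA-MB-231 (0.11 ± 0.090). The adaptor ELOC rose in MDA-MB-231 (0.41 ± 0.089, adjusted p = 0.00105) and in SUM159PT (0.27 ± 0.10, adjusted p = 0.0486). The adaptor ELOB fell in MDA-MB-231 (-0.31 ± 0.090, adjusted p = 0.00871) and was not called in SUM159PT (0.14 ± 0.075), and the scaffold CUL2 was called in neither line. HIF1AN, an asparaginyl hydroxylase that blocks HIF activity, rose in MDA-MB-231 (0.44 ± 0.071, adjusted p = 7.21e-05) and was not called in SUM159PT (0.19 ± 0.12). The ligase genes and HIF1AN were chosen for mention after their values were seen.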

How the data were processed

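Messenger RNA was measured by RNA sequencing in 16 libraries, 4 for each siRNA in each of 2 lines. Per the submitters' processing notes, HISAT2 2.0.5 placed the reads on hg38 and featureCounts 1.5.0-p3 counted them. The authors deposited the raw counts of each line as a separate table. The annotation release of the counting and its use of strand were not given in the sources used here. Overlapping and antisense genes are therefore uncertain. All gene IDs were looked up in GENCODE 29, which gave symbols, exon lengths and GRCh38 coordinates.

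The 42 members, their groups, the wider pathway list and the marker lists were chosen with earlier results of these data known. The 8 libraries of each line were fitted alone with edgeR 4.0.16 in R 4.3.3, after TMM scaling and filterByExpr. Quasi-likelihood F tests gave p-values, adjusted by Benjamini-Hochberg over all genes tested. The difference between lines is the interaction of line and siRNA over 16 libraries, scaled together, so it exceeds the subtraction of the fold changes by a median of 0.097 over the members. CPM were scaled by TMM within each line, and no level was tested across lines. The standard error is the log2 fold change divided by the square root of F. Values in every library are given for members called in a line at a log2 fold change of 0.5 or more in size, for those called in the difference and for the oxygen sensing genes, and from the wider list for those called at 1 or more, at most 6 per line (means for most of these). Some values under these rules are not reported here. The biological coefficient of variation came to 0.0988 (MDA-MB-231) and 0.165 (SUM159PT). No libraries were duplicates: chi-square per degree of freedom between libraries of a group was at least 2.15. In MDA-MB-231 siNS it was 4.13 between libraries 3 and 4 and from 17.12 to 23.65 between the other pairs. In SUM159PT siNS it ran from 29.98 to 44.73 for pairs with library 1 and from 6.504 to 12.25 for the others. The reason for these gaps was not tested. Reads given to named pseudogenes of a member were at most 0.839% of both together (TPI1). Promoters came from RefSeq.

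Alternatives were RLE scaling, total counts, no filter, a mean of at least 1 CPM, DESeq2 1.42.0, limma-voom (limma 3.58.1), the replicate number as a block, a joint fit, TMM within each line for the difference, and leaving out each library. The fits were tested on simulated data.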

Additional observations from a re-analysis of the deposited data

Results flagged for a closer look

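In 30 of the 42 members the effect of siYES1 differed between the lines in edgeR's quasi-likelihood test of the interaction. That test called 24.3% of all genes. The values are the SUM159PT log2 fold change minus that of MDA-MB-231, fitted over 16 libraries with 4 in each group. Of the HIF subunits they were HIF1A 1.70 (adjusted p = 4.86e-08), EPAS1 -0.39 (adjusted p = 0.0208) and ARNT 0.69 (adjusted p = 0.00196).

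Of the other HIF targets they were CA9 2.91 (adjusted p = 0.000365), CA12 0.62 (adjusted p = 0.00221), VEGFA 1.30 (adjusted p = 3.18e-05), ADM 1.42 (adjusted p = 0.00048), ANGPTL4 -0.87 (adjusted p = 0.0206), BNIP3 0.86 (adjusted p = 0.000165), BNIP3L 1.04 (adjusted p = 1.03e-05), NDRG1 1.59 (adjusted p = 0.000795), P4HA1 1.13 (adjusted p = 6.38e-05), P4HA2 0.65 (adjusted p = 0.00158), KDM3A 0.81 (adjusted p = 0.019), MXI1 1.41 (adjusted p = 1.36e-05) and BHLHE40 1.16 (adjusted p = 0.0197). Except for ANGPTL4, each of these 13 values was above 0.

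Among the genes of glucose uptake and the upper steps of glycolysis they were SLC2A1 0.53 (adjusted p = 0.00195), HK1 0.93 (adjusted p = 1.02e-06), HK2 1.14 (adjusted p = 0.000594), PFKP 0.48 (adjusted p = 0.00196), PFKM 0.44 (adjusted p = 0.00153), PFKFB3 0.52 (adjusted p = 0.00562), PFKFB4 0.92 (adjusted p = 0.0183), ALDOC 1.62 (adjusted p = 0.00899) and TPI1 0.49 (adjusted p = 0.00327). For the lower steps and PDK1 they were GAPDH 0.41 (adjusted p = 0.0075), PGK1 0.47 (adjusted p = 0.00548), ENO1 0.64 (adjusted p = 2.39e-05), ENO2 0.64 (adjusted p = 0.0126) and PDK1 0.75 (adjusted p = 0.00234).

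A single library stood apart from the other 3 of its group in 9 of 168 groups tested (42 members in 4 groups), by the ratio of its gap to the group's range. Chance gives such a library in about 1 of 20 groups. They were SLC2A3 in MDA-MB-231 siNS 1 (69.7 CPM), TPI1 in MDA-MB-231 siNS 2 (777 CPM), GAPDH in MDA-MB-231 siNS 2 (2167 CPM), HK1 in SUM159PT siNS 1 (476 CPM), PGK1 in SUM159PT siNS 1 (553 CPM), ANGPTL4 in SUM159PT siNS 1 (109.6 CPM), PFKP in SUM159PT siYES1 3 (707 CPM), EPAS1 in SUM159PT siYES1 4 (462 CPM) and ARNT in SUM159PT siYES1 3 (88.6 CPM). HK1, PGK1 and ANGPTL4 stood apart in the same library, SUM159PT siNS 1, with HK1 low and the others high. Why this library differs was not tested.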

How the results depend on the processing

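No member called in a comparison changed direction under any alternative run. RLE scaling and DESeq2 kept all 28 member calls in MDA-MB-231 and all 21 in SUM159PT. For the difference, DESeq2 kept 29 of 30 calls (without BHLHE40). With total counts as scaling 9 members were called higher and 9 lower in SUM159PT, against 16 and 5; that scaling drops the correction for composition. In MDA-MB-231 it lost SLC2A3 and gained PFKL, ENO1 and EGLN1, and in the difference it also gained EGLN3 (-0.53, adjusted p = 0.0471). With limma-voom 1 member was called lower in the difference, against 2, since ANGPTL4 did not pass (-0.84, adjusted p = 0.0614). ALDOC did not pass there either (1.799, adjusted p = 0.0732), and LDHA was gained (0.26, adjusted p = 0.0499). The joint fit of 16 libraries lost SLC2A3, PDK3 (-0.40, adjusted p = 0.154) and ADM in MDA-MB-231 and gained PFKL, ENO1 and EGLN1. In SUM159PT it lost EGLN1 (-0.15, adjusted p = 0.111) and gained PFKP, LDHA, ARNT, BNIP3 and NDRG1. The cause of these losses was not tested. Leaving out 1 library gave 2 to 3 members higher and 22 to 27 lower in MDA-MB-231, 11 to 20 higher and 3 to 6 lower in SUM159PT, and 28 to 30 higher and 1 to 2 lower in the difference. These fits have fewer libraries by construction.

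Libraries of the same number did not deviate together (correlations from -0.123 to 0.033 in MDA-MB-231 and from -0.068 to 0.088 in SUM159PT), so the numbers do not pair the libraries, and in each line 1 of 4 siNS libraries correlated best with its own number. With the replicate block 3 members were called higher and 25 lower in MDA-MB-231, 17 higher and 4 lower in SUM159PT (EGLN1 was lost and NDRG1 gained), and 30 higher and 2 lower in the difference (SLC2A3 and ALDOA were gained). Depth limits CA9 in MDA-MB-231 siYES1, with 2 to 5 counts per library, and PDK3 in SUM159PT, with 7 to 25.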
